A study of Mus musculus with 54 samples.

Results

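The LPS response of wild-type sdCAMs, the subdural CNS-associated macrophages that lie in the leptomeninges and around the vessels of the brain, was described from 6 of the 54 bulk RNA-seq libraries of the study, 3 from mice given lipopolysaccharide (LPS) and 3 from untreated mice. The study asked how macrophages of the central nervous system respond to endotoxin after they have been depleted with BLZ945 and have repopulated, and the sdCAMs treated here were never depleted. All 6 libraries came from Wild type mice (C57BL/6JCrl), and CD206+ sdCAMs and CD206- microglia (MG) were sorted by flow cytometry from brains without the choroid plexuses. Both sdCAM groups were chosen by their labels alone: the WT sdCAM libraries of mice 1, 4 and 6 (Vehicle+LPS, called CTL LPS) and of mice 9, 14 and 15 (untreated+PBS). CTL LPS mice had received the vehicle of BLZ945 by gavage as young adults, were injected with LPS 8 weeks later and were killed 12 h after that. Untreated mice received PBS in place of LPS and no vehicle, so an effect of the vehicle and one of LPS cannot be told apart. Each library was 1 mouse, mice of both sexes entered each group, and the labels gave 1 batch for all. The 3 WT sdCAM libraries of mice given BLZ945 and LPS were fitted along with these 6. They entered the low-count filter, the scaling and the spread, but not the contrast.

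LPS is a cell wall component of Gram-negative bacteria that is bound by CD14 and MD-2 (encoded by Ly96) and sensed by the receptor TLR4. TLR4 signals through MyD88 to NF-kappaB and MAP kinases, which drive genes of cytokines, chemokines and their inhibitors, and through TRIF to IRF3 and type I interferon, which drives interferon-stimulated genes. Macrophages at the borders of the brain sit between blood vessels, cerebrospinal fluid and parenchyma, carry the mannose receptor CD206 (Mrc1) and scavenger receptors, and lie closer to the circulation than most microglia.

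Library totals were 1929070 to 3049028 counts in the untreated group and 2386672 to 7699790 counts after LPS, with 13156 to 13697 and 12103 to 14755 genes detected. A single gene took up much of the LPS libraries. Saa3, which encodes a serum amyloid A protein of the acute phase, held 0.0333%, 0.00264% and 0.167% of all counts in untreated mice 9, 14 and 15, and 35.8%, 23.1% and 23% in CTL LPS mice 1, 4 and 6. The widest 95% Wilson interval of these shares after LPS was 23.1% to 23.2%. In Ccr2-/- sdCAMs after LPS the share was 5.88% to 6.71%. All levels below are therefore TMM-scaled CPM: counts scaled to a total of 1000000 per library, with totals adjusted so that the bulk of genes matches across libraries. Per-library values are listed in the order of mice 9, 14 and 15 for the untreated group and 1, 4 and 6 for the LPS group. Saa3 differed widely among the untreated libraries, and its contrast did not pass the test (adjusted p = 0.109). It was called higher in 7 of 21 alternative fits, among them the one on the 5 libraries that carry the IEG_correction label, all but untreated mouse 15 (adjusted p = 0.00319), and one with a length offset described below (adjusted p = 0.022). Ccl5, a chemokine for T cells and monocytes, was likewise not called (log2 fold change 10.05, SE 2.78, adjusted p = 0.0543), with levels of 70.3, 0 and 55.2 CPM untreated and 65400, 30630 and 37060 CPM after LPS. It was called higher in 10 of 20 such fits, among them the one on the 5 labelled libraries (adjusted p = 0.00635) and the one with the offset (log2 fold change 6.93, adjusted p = 0.038).

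Microglial RNA differed between the groups. P2ry12, Tmem119, Sall1 and Sparc, 4 genes of microglia, were used to set a microglial level, the median of their CPM as a percent of the CPM in MG of the same mouse. This level was 13.6%, 18.6% and 35.3% in the untreated sdCAM libraries and 4.85%, 2.74% and 5.46% after LPS, and the groups did not overlap. Over all 10 microglial markers the summed level was 3370, 3990 and 5230 CPM against 669, 1490 and 1430 CPM, with 0 markers at 0 counts in either group. Of these markers, 0 of 10 tested members were called higher (0%) and 5 lower (50%). P2ry12 was called lower in MG after LPS too, at a log2 fold change of -3.22 (SE 0.29, adjusted p = 1.19e-05). In bulk samples such as these, fewer cells of a type and less RNA per cell cannot be told apart, and the part of microglial RNA in each lower call of sdCAMs was not tested beyond the subtraction given below.

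**Figure D1:**
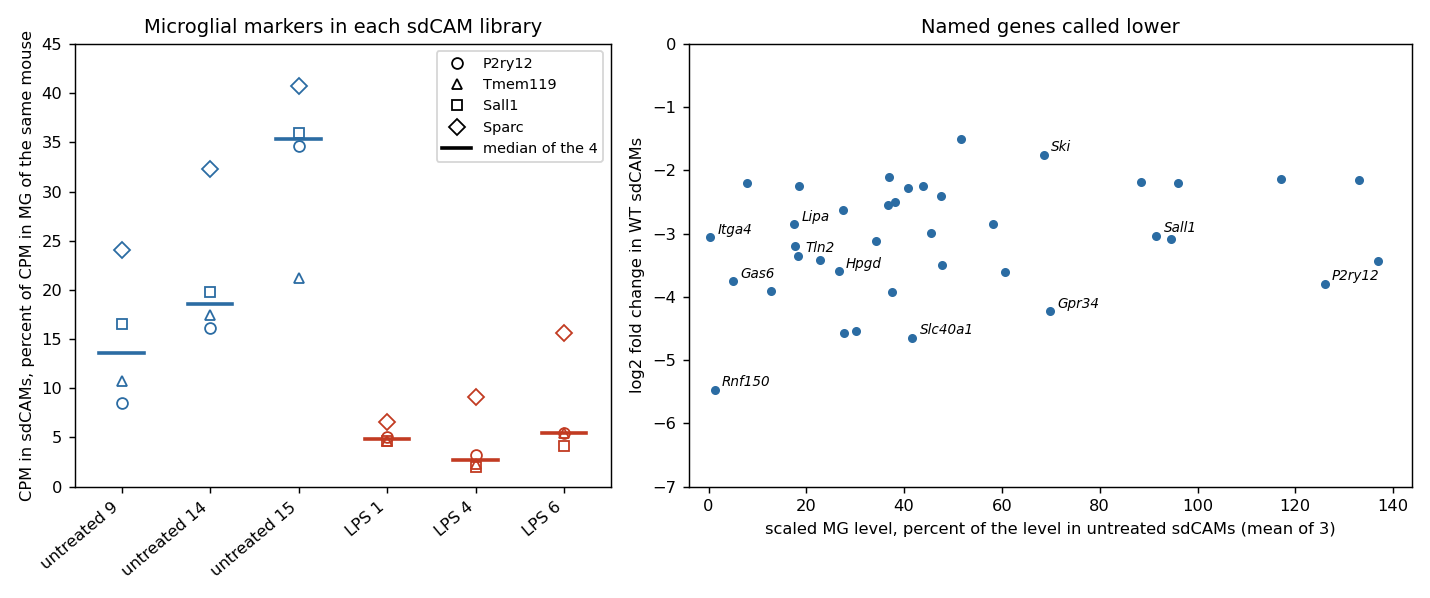
Left, CPM of P2ry12, Tmem119, Sall1 and Sparc (open symbols) in each WT sdCAM library as a percent of the CPM in MG of the same mouse, with the median as a bar: the untreated libraries lie at 13.6% to 35.3% and the LPS libraries at 2.74% to 5.46%. Right, for the named genes called lower with over 3 counts after LPS, the MG level scaled to each library's microglial level, as a percent of the level in untreated sdCAMs (x axis), against the log2 fold change in WT sdCAMs (y axis): Rnf150, Itga4 and Gas6 lie at 1.28%, 0.294% and 5.1%, and P2ry12 at 126%.

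To read single genes against this, the MG profile was scaled to the microglial level of each untreated library and expressed as a percent of what that library held. Among the 275 genes called lower, 127 had a microglial part under 25%, 117 one from 25% to 75% and 31 one over 75%, with a median of 27.4% against 32.9% over all genes tested. A small part did not mean that a call was kept when the MG profile was subtracted, which left 9 lower calls. Itga4, Gas6, Ccr2, Ciita and Mef2c, whose parts are given below, were not called then. Markers of the sorted cells were found in every library, though some were low after LPS. Summed over 16 border macrophage markers, the level was 33900, 27000 and 17500 CPM untreated and 24500, 46800 and 21000 CPM after LPS, and the groups overlapped. Apoe (2610, 11900 and 5890 unscaled CPM) and Pf4 (6990, 5640 and 4310) made up most of it after LPS. Lyve1 lay at 422, 549 and 739 unscaled CPM untreated and 5.84, 313 and 43 after LPS. Of the 16 markers, 6 had a log2 fold change over 0. Neutrophil markers summed to 64.4, 25 and 1.09 CPM untreated and 2340, 257 and 483 CPM after LPS. Most of the sum after LPS was S100a8, while S100a9 was the higher in untreated mouse 9 (56.7 against 22.6 unscaled CPM). Ly6g and Retnlg, which define neutrophils, were at 0 counts in all 6 libraries, and 4 of the 9 neutrophil markers were at 0 in each group. Monocyte markers summed to 18 to 35.5 CPM untreated and 17.4 to 76.4 CPM after LPS, with Ly6c2 at 0.13, 0 and 0.152 unscaled CPM after LPS and Chil3 at 0 in all 6. Sums of lymphocyte markers stayed at 2.45 to 26.6 CPM, of endothelial and mural markers at 2.92 to 27.5 CPM and of fibroblast markers at 10.3 to 38.7 CPM. Neural and glial markers summed to 81.3 to 385 CPM, and choroid plexus and erythroid markers to 2.22 to 310 CPM untreated and 13.9 to 1340 CPM after LPS, the last mostly Ttr in mouse 1. Pan-macrophage genes summed to 6420 to 14900 CPM untreated and 58100 to 84300 CPM after LPS, and 1 of 9 of them was called higher. Most of the sum after LPS was Fcer1g, at 4380, 2180 and 1140 unscaled CPM untreated and 29600, 29700 and 27900 after LPS. Csf1r went the other way, from 2760, 3910 and 6670 to 339, 491 and 512 unscaled CPM. Of the 9, 7 had a log2 fold change over 0, with a median of 0.84, or 0.02 with the length offset described below. Immediate early genes, which respond to handling of cells, summed to 693 to 1300 CPM untreated and 925 to 1130 CPM after LPS, and heat shock chaperones to 1340 to 1670 and 1940 to 2590 CPM.

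Libraries of the groups also differed in the share of reads from Lars2 and Rn18s and along transcript length. Lars2 held 1.22%, 2.09% and 6.2% of counts in untreated mice 9, 14 and 15 and 0.14%, 0.191% and 0.0581% in CTL LPS mice 1, 4 and 6. Rn18s held 0.694%, 1.07% and 0.703% against 0.149%, 0.119% and 0.147%. Genes whose longest GENCODE transcript had up to 1000 bases had a median log2 fold change of 2.13 (502 genes), those over 1000 and up to 2000 bases 0.77 (1568 genes). The median was -0.02 for genes over 2000 and up to 4000 bases (4066 genes) and -0.52 for longer ones (4017 genes). Across the 10153 genes with a length (96.7% of those tested), Spearman's rho of fold change and length was -0.371. In the class of up to 1000 bases, the median deviation of genes from their mean over the 9 WT sdCAM libraries was 0.25, -0.49 and -2.31 on the log2 scale in untreated mice 9, 14 and 15, and 1.54, 2.16 and 1.49 in CTL LPS mice 1, 4 and 6. Without untreated mouse 15, the lowest of these, the medians were 1.75, 0.68, 0.03 and -0.43. In Ccr2-/- sdCAMs, given the same vehicle and LPS and compared with their own untreated mice, the medians were 0.09, 0.09, 0.01 and -0.17, and in WT MG 0.08, 0.02, 0.04 and 0.01. A fit with a length offset in each library, added after the data were seen, gave medians of 0.15, -0.22, -0.05 and -0.04. For the LPS response of WT sdCAMs below, the offset value stands beside a log2 fold change that it moved by over 1.5 times. Calls of that response lost with the offset are named. What sets the gradient and the shares of Lars2 and Rn18s was not tested.

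**Figure D2:**
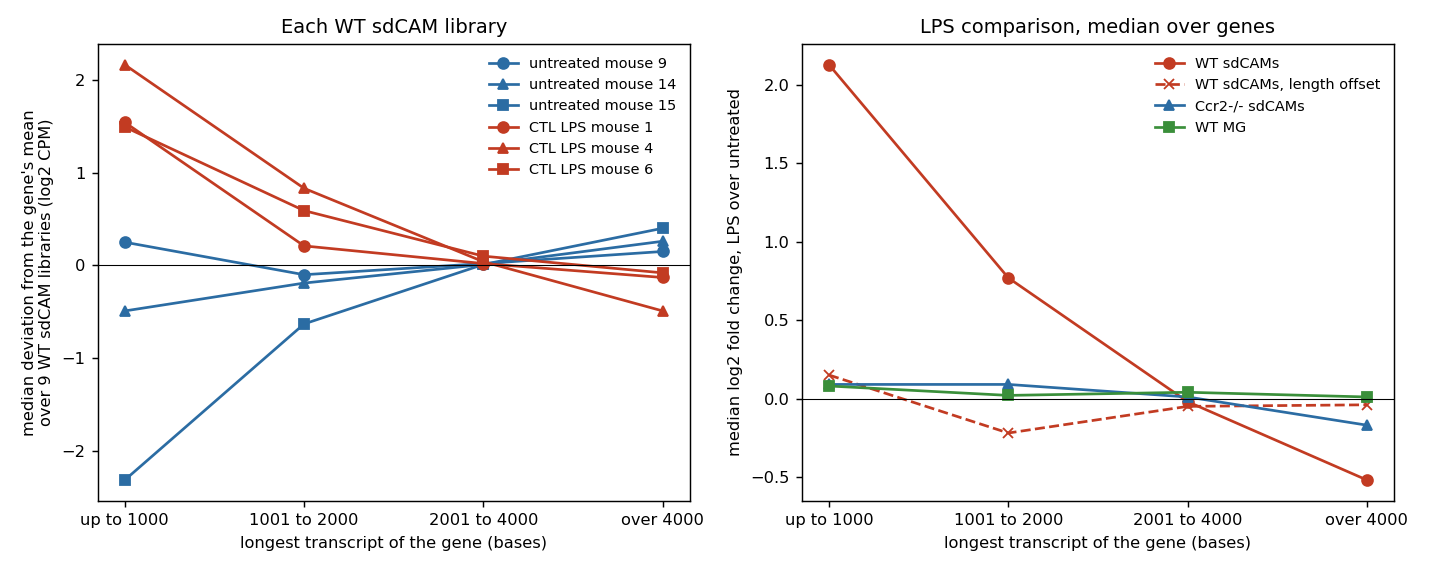
Left, median deviation of genes from their mean over 9 WT sdCAM libraries (log2 CPM) in 4 classes of transcript length, for each untreated library (blue) and LPS library (red): in the class up to 1000 bases the untreated libraries lie between -2.31 and 0.25 and the LPS libraries between 1.49 and 2.16. Right, median log2 fold change of LPS over untreated per length class in WT sdCAMs, in WT sdCAMs with the length offset, in Ccr2-/- sdCAMs and in WT MG: the WT sdCAM line without the offset runs from 2.13 down to -0.52 and the other 3 stay between -0.22 and 0.15.

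LPS raised 389 genes and lowered 275 of 10504 tested in WT sdCAMs, which is 3.7% called higher and 2.62% called lower. A call needed an adjusted p below 0.05 together with a log2 fold change beyond 1 in either direction. The median log2 fold change over all genes was -0.08. In 3718 genes (35.4%) the 3 LPS libraries lay all above or all below the 3 untreated ones, and this held for 386 of the 389 higher and 275 of the 275 lower calls. A lack of overlap in genes named below is to be read against these shares and does not set a call apart from other calls. Counts were 0 in all untreated libraries for 34 of the higher calls, and 0 in all LPS libraries for 6 of the lower ones. The spread between the 9 fitted libraries was wide, with a common biological coefficient of variation of 0.7. The 3 BLZ945 LPS libraries in this fit were unlike each other, with Saa3 at 2.39%, 1.79% and 21% of counts in mice 8, 11 and 12. A fit of the 6 compared libraries alone called 1359 genes. Leaving out 1 of the 6 libraries brought the 664 calls to 137 (without CTL LPS mouse 6), 159 (without untreated mouse 14), 234 (without untreated mouse 15), 236 (without CTL LPS mouse 1), 240 (without untreated mouse 9) or 293 (without CTL LPS mouse 4). Subtraction of the microglial profile left 66 higher and 9 lower calls, of which 74 were among the 664. In the 21 alternative fits, 50 calls (46 higher and 4 lower) were kept in each, and 0 calls changed sign in any. The alternative without a fold-change limit used the values of the main fit and could not lose a call. Since nearly all calls were free of overlap, leaving out a library could hardly turn a sign. The number of the 21 fits that kept a call is given beside each gene as "of 21 fits". Pathway lists are given below by their counts of calls, to be read against the 3.7% and 2.62% of all genes (10.9% and 10.6% in Ccr2-/- sdCAMs), and a gene can be in several lists.

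Libraries that did not enter this contrast showed many of the same changes. Of 388 higher calls also tested in Ccr2-/- sdCAMs, 272 were called higher there (70.1% of the WT calls and 23.1% of the 1178 Ccr2-/- calls), where 11.5% of genes tested in both were called higher, and 0 were called lower. Of 273 lower calls, 216 were lower in Ccr2-/- sdCAMs (79.1% of the WT calls and 18.1% of 1195), against 11.6% of genes, and 0 were called higher. Among short genes of up to 1000 bases, 30 of 45 higher calls were called higher in Ccr2-/- sdCAMs. In MG of the same WT mice, 179 of 357 higher calls were higher (50.1%, against 9.71% of genes) and 122 of 259 lower calls were lower (47.1%, against 7.29% of genes), and 2 calls in each direction were called in the opposite one. Over all genes tested in MG, 9.08% were called higher and 7.65% lower.

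**Figure D3:**
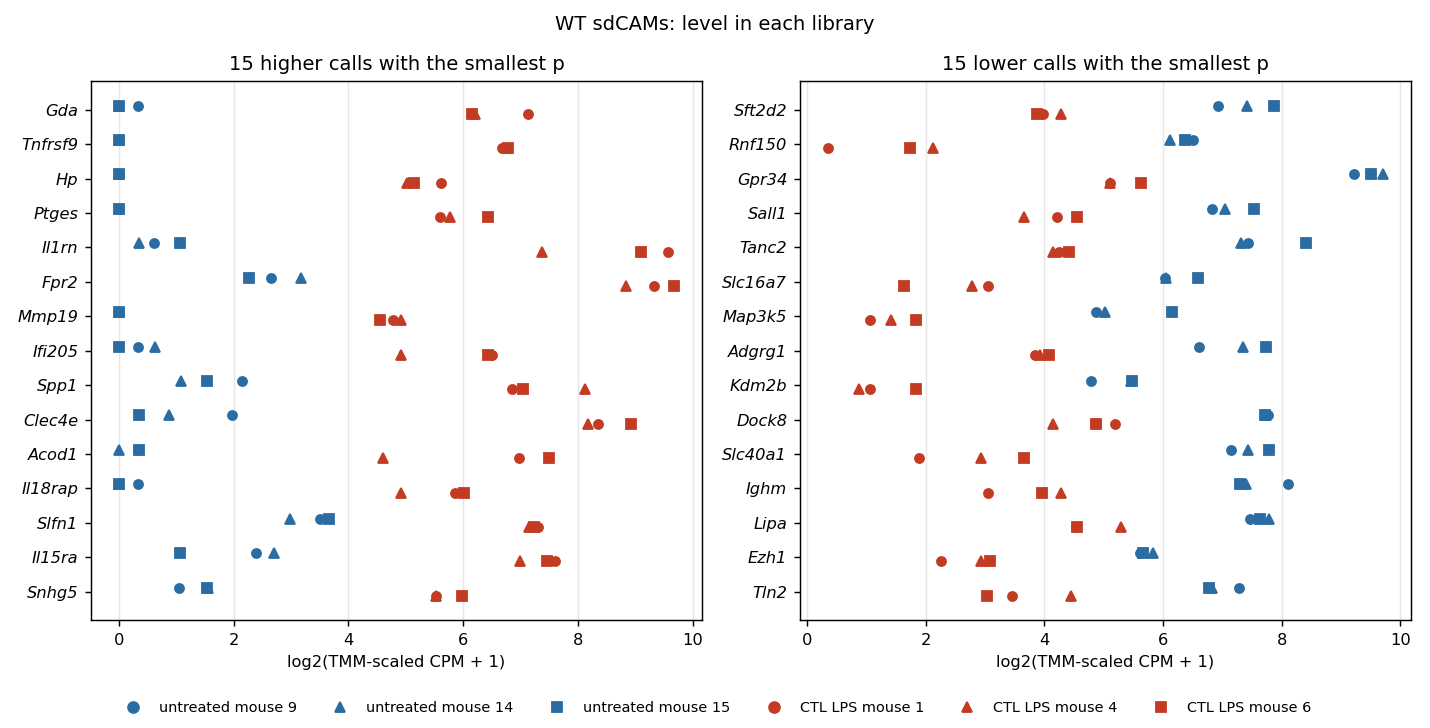
Level of the 15 higher calls (left) and the 15 lower calls (right) with the smallest p among well-expressed named genes, in each WT sdCAM library, as log2(TMM-scaled CPM + 1), with untreated mice in blue and CTL LPS mice in red and 1 symbol per mouse. The 30 genes were chosen among calls without overlap, so the 3 LPS libraries lie apart from the 3 untreated ones by choice.

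Genes that were near 0 in untreated sdCAMs and present in all 3 LPS libraries led the higher calls. The calls in this paragraph and the next were chosen among those without overlap of the groups, so their separation follows from the choice. Tnfrsf9, the costimulatory receptor 4-1BB of the TNF receptor family, lay at 0, 0 and 0 CPM untreated and 102, 107 and 109 CPM after LPS (at least 130-fold higher, adjusted p = 0.00117, 21 of 21 fits). No count of it was found in an untreated library, and its LPS levels were close together. Gda, guanine deaminase of purine breakdown, lay at 0.265, 0 and 0 CPM untreated and 139, 72.5 and 70.4 CPM after LPS (adjusted p = 0.00117, 21 of 21 fits). Hp, which encodes the haemoglobin-binding acute phase protein haptoglobin, was at 0, 0 and 0 CPM untreated and 48, 31.6 and 34.1 CPM after LPS (at least 46.5-fold higher, adjusted p = 0.00135, 21 of 21 fits). Ptges, the inducible prostaglandin E synthase, was at 0, 0 and 0 CPM untreated and 47.2, 53.3 and 85.2 CPM after LPS (at least 76-fold higher, adjusted p = 0.00135, 21 of 21 fits). In all 4 genes the LPS libraries were high and the untreated ones at or near 0. Acod1, whose product makes itaconate from an intermediate of the citrate cycle, stood at 0.265, 0 and 0.272 CPM untreated and 124, 23.3 and 180.3 CPM after LPS (adjusted p = 0.0016, 21 of 21 fits), with mouse 4 the lowest of the LPS libraries. Il1rn, the antagonist of the interleukin-1 receptor, stood at 0.53, 0.278 and 1.09 CPM untreated and 755, 165 and 546 CPM after LPS (log2 fold change 9.52, SE 0.96, adjusted p = 0.00135, 21 of 21 fits). Fpr2, a receptor for formylated bacterial peptides, stood at 5.3, 8.06 and 3.81 CPM untreated and 640.2, 455 and 819 CPM after LPS (log2 fold change 6.79, SE 0.70, adjusted p = 0.00144, 21 of 21 fits, log2 fold change 5.25 with the length offset). Of the last 3 genes, Fpr2 differed least among the LPS libraries relative to its level.

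Other leading higher calls were of several classes. Mmp19, a matrix metalloproteinase, had 0 counts in all untreated libraries and 26.6, 29.2 and 22.5 CPM after LPS (at least 32-fold higher, adjusted p = 0.0016, 21 of 21 fits). Il18rap, a subunit of the interleukin-18 receptor, reached 57.1, 29.1 and 63.9 CPM from 1 count in the untreated group (adjusted p = 0.00167, 21 of 21 fits). Il15ra, which presents interleukin-15 to lymphocytes, lay at 4.24, 5.56 and 1.09 CPM untreated and 193, 127 and 176 CPM after LPS (log2 fold change 5.50, SE 0.63, adjusted p = 0.00181, 21 of 21 fits). Spp1, the secreted phosphoprotein osteopontin, lay at 3.45, 1.11 and 1.9 CPM untreated and 114, 276 and 131 CPM after LPS (log2 fold change 6.30, SE 0.69, adjusted p = 0.0016, 21 of 21 fits, log2 fold change 5.32 with the length offset). All of these were high in each LPS library and low in each untreated one. Slfn1, of the interferon-responsive Schlafen family, lay at 10.3, 6.95 and 11.7 CPM untreated and 157, 139.9 and 150.1 CPM after LPS (log2 fold change 3.94, SE 0.45, adjusted p = 0.00181, 21 of 21 fits), with LPS libraries within a narrow range. Snhg5, a host transcript of small nucleolar RNAs, lay at 1.06, 1.95 and 1.9 CPM untreated and 45.1, 45 and 62.3 CPM after LPS (log2 fold change 4.93, SE 0.57, adjusted p = 0.00182, 19 of 21 fits, log2 fold change 3.44 with the length offset). In Ccr2-/- sdCAMs its log2 fold change was 0.80 (SE 0.46, adjusted p = 0.219).

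Sequences before the start sites of some higher genes are shown because the pathway ends in transcription factors with known motifs. Promoters of 300 bases from RefSeq (build GRCm38.p6) were found for 314 of the 389 higher genes (80.7%), 376 promoters in all, and for 208 of the 275 lower genes (75.6%), under the 80% set here as the minimum for a summary. The letters bound by NF-kappaB, here GGGA and any base followed by TTTCC or TTCC, were found on either strand in 13 of these promoters (3.46%), against 683 of 32851 in the whole table (2.08%). The core of the interferon-stimulated response element (ISRE), GAAA and any 2 bases followed by GAAA, was found in 24 (6.38%, against 3.44% of all). Letters bound by C/EBP factors, TTGC and any 2 bases followed by AA, were found in 49 (13%, against 10.8% of all). These counts describe letters in the sequence and say nothing of binding. A first set of windows, capitals marking the NF-kappaB letters, belongs to a receptor, a pair of neutrophil chemokines and the inhibitor of NF-kappaB, each called higher. In this order they lie at chr4:150927917-150927998 (plus strand), chr5:90891134-90891223 (plus strand), chr5:90903762-90903851 (plus strand) and chr12:55492648-55492716 (minus strand), each ending at or before the start site.
Tnfrsf9: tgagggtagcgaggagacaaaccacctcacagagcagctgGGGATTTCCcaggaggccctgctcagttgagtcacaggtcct
Cxcl1: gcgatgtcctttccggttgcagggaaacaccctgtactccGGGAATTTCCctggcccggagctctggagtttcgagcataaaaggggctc
Cxcl2: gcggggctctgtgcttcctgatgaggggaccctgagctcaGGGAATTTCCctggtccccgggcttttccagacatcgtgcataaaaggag
Nfkbia: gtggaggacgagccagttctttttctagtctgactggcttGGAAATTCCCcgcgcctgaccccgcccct

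A second set, capitals marking ISRE letters, belongs to interferon-stimulated genes called higher and lies at chr4:156200847-156200936 (minus strand) and chr1:174031840-174031929 (minus strand). In Isg15 the match in capitals begins at position -78 from the start, a further match at -72 overlaps it, and another at -66 overlaps the one at -72.
Isg15: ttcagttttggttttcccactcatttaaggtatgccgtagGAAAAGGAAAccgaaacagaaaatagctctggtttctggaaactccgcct
Ifi205: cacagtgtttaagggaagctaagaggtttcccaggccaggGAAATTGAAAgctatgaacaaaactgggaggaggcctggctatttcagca

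A last set, capitals marking C/EBP letters, belongs to Saa3, which held the largest share of counts after LPS, to Clec4e, a lectin gene, and to complement C3. Its windows lie at chr7:46715728-46715815 (minus strand), chr6:123289890-123289977 (minus strand) and chr17:57228137-57228221 (minus strand).
Saa3: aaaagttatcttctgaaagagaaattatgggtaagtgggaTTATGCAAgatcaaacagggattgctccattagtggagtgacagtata
Clec4e: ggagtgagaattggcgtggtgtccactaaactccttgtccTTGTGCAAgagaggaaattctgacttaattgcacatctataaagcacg
C3: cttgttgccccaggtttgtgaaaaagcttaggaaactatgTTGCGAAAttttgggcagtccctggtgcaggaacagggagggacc

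Sensors and adaptors of the pathway held few calls. 1 of 15 tested members was called higher (6.67%) and 0 lower, with a median log2 fold change of 0.01. Map3k8, the kinase TPL2 that links TLR4 to ERK, rose from 23.6, 36.1 and 12.8 CPM to 326, 196 and 263 CPM (log2 fold change 3.44, SE 0.60, adjusted p = 0.0116, 18 of 21 fits). Tlr4 itself lay at 55.9, 119 and 173 CPM untreated and 27.4, 39.1 and 25.6 CPM after LPS (log2 fold change -1.93, SE 0.56, adjusted p = 0.0649). Cd14 lay at 171, 155 and 203 CPM untreated and 492, 469.7 and 679 CPM after LPS (log2 fold change 1.63, SE 0.51, adjusted p = 0.0794, log2 fold change 0.86 with the length offset). Neither passed the test, although the 6 libraries did not overlap for either gene. In Ccr2-/- sdCAMs Tlr4 was called lower, at a log2 fold change of -1.30 (SE 0.16, adjusted p = 4.67e-05), and Cd14 higher, at 2.16 (SE 0.15, adjusted p = 4.75e-07).

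Of subunits and inhibitors of NF-kappaB, 2 of 14 tested members were called higher (14.3%) and 0 lower, with a median of 0.74. Nfkbia, the inhibitor IkappaBalpha that NF-kappaB itself induces, rose from 96, 115 and 47.3 to 1148, 1474 and 1335 CPM (log2 fold change 3.94, SE 0.69, adjusted p = 0.0116, 18 of 21 fits, log2 fold change 3.15 with the length offset). Ikbke, an inducible kinase upstream of IRF3, rose from 0, 4.17 and 0.272 to 216, 179 and 169.6 CPM (log2 fold change 6.97, SE 1.17, adjusted p = 0.00942, 21 of 21 fits). Groups did not overlap for either. Rela, the main activating subunit, was not called (log2 fold change -1.12, SE 0.46, adjusted p = 0.154).

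Negative feedback regulators of cytokine and TLR signalling were called often. 6 of 17 tested members were called higher (35.3%) and 0 lower, with a median log2 fold change of 2.05 and of 2.04 with the length offset. Ccr2-/- sdCAMs had 16 higher and 0 lower calls among 19 (10.9% of all genes there were called higher). Dusp2, a phosphatase of ERK and p38, had 0 counts in all untreated libraries and 96.5, 25.8 and 72 CPM after LPS (at least 79.5-fold higher, adjusted p = 0.00213, 21 of 21 fits). Socs3, the inhibitor of interleukin-6 signalling, lay at 2.92, 8.33 and 5.17 CPM untreated and 297, 112 and 183 CPM after LPS (log2 fold change 5.17, SE 0.64, adjusted p = 0.00219, 19 of 21 fits). Irak3, a brake on the IRAK kinases, lay at 19.1, 13.3 and 17.1 CPM untreated and 83.7, 44.1 and 76.7 CPM after LPS (log2 fold change 2.05, SE 0.42, adjusted p = 0.0199, 14 of 21 fits). LPS libraries were above all untreated ones in each of these genes. Il1rn and Il1r2 were also among the 6 calls. Dusp1, a phosphatase induced by both LPS and glucocorticoids, lay at 32.1, 99.2 and 28.6 CPM untreated and 530, 322 and 401 CPM after LPS (log2 fold change 2.97, SE 0.64, adjusted p = 0.0232, 15 of 21 fits).

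Within the interleukin-1 family and inflammasome, 5 of 14 tested members were called higher (35.7%) and 0 lower (median 1.62). Il1b, which encodes the cytokine interleukin-1 beta, lay at 0.795, 3.33 and 2.45 CPM untreated and 62.8, 9.16 and 124 CPM after LPS (log2 fold change 4.89, SE 1.01, adjusted p = 0.0199, 13 of 21 fits, log2 fold change 3.77 with the length offset), with mouse 4 far below the other LPS mice. Il1r2, a decoy receptor for interleukin-1, lay at 5.57, 0.278 and 0 CPM untreated and 41, 94.1 and 51.8 CPM after LPS (log2 fold change 4.96, SE 1.07, adjusted p = 0.0234, 15 of 21 fits, log2 fold change 3.98 with the length offset). Il18bp, the soluble binder of interleukin-18, lay at 2.12, 13.3 and 12.2 CPM untreated and 101, 157 and 133 CPM after LPS (log2 fold change 3.81, SE 0.63, adjusted p = 0.00907, 19 of 21 fits). Together with Il1rn, 3 of the 5 calls were thus inhibitors of interleukin-1 family cytokines. Pycard, the inflammasome adaptor ASC, rose from 79.3, 77.5 and 59.9 to 1157, 1864 and 1228 CPM (log2 fold change 4.29, SE 0.96, adjusted p = 0.0271, 12 of 21 fits).

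For the TNF and TNF receptor family, 3 of 12 tested members were called higher (25%) and 0 lower (median 0.94). Beside Tnfrsf9, both others were receptors too. The death receptor gene Fas lay at 1.06, 4.17 and 2.45 CPM untreated and 70, 65.8 and 72.7 CPM after LPS (log2 fold change 4.75, SE 0.60, adjusted p = 0.00247, 21 of 21 fits, log2 fold change 3.99 with the length offset). The costimulatory receptor gene Cd40 lay at 8.22, 10.6 and 16.3 CPM untreated and 44.2, 42.5 and 48.1 CPM after LPS (log2 fold change 1.94, SE 0.44, adjusted p = 0.0292, 14 of 21 fits). Tnf lay at 0, 28.3 and 0.544 CPM untreated and 35.9, 49.1 and 74.1 CPM after LPS and was not called (log2 fold change 2.46, SE 1.27, adjusted p = 0.256, log2 fold change 1.77 with the length offset), untreated mouse 14 standing far above the other untreated mice.

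Among other cytokines and receptors, 6 of 15 tested members were called higher (40%) and 0 lower (median 1.14). With the length offset, 6 were called higher and 3 lower (Il10ra, Il15 and Il21r). In Ccr2-/- sdCAMs 9 of 18 were called higher and 3 lower (10.9% and 10.6% of all genes there). Il27 and Ebi3 encode the subunits of interleukin-27, and both were called. Il27 lay at 0.265, 0 and 0 CPM untreated and 21.7, 23.3 and 27.4 CPM after LPS (adjusted p = 0.00741, 19 of 21 fits). Ebi3 lay at 20.1, 24.2 and 7.62 CPM untreated and 118, 376 and 224 CPM after LPS (log2 fold change 3.79, SE 0.64, adjusted p = 0.00986, 20 of 21 fits). Its log2 fold change was 2.16 with the length offset (adjusted p = 0.0197). Csf3, granulocyte colony-stimulating factor, had 0 counts in untreated libraries and 32.2, 5 and 37.9 CPM after LPS (at least 30.7-fold higher, adjusted p = 0.012, 18 of 21 fits). It was also the call among 7 tested colony-stimulating factor genes. Il2rg, a receptor chain shared by several interleukins, rose from 5.57, 3.89 and 7.07 to 86.9, 39.1 and 106 CPM (log2 fold change 3.81, SE 0.52, adjusted p = 0.00382, 20 of 21 fits, log2 fold change 3.11 with the length offset). Il6 lay at 0, 1.67 and 0.544 CPM untreated and 8.05, 4.16 and 15.8 CPM after LPS and was not called (log2 fold change 3.62, SE 1.44, adjusted p = 0.146). Too few counts were present to test Il12b (0 untreated, and 7.79, 0 and 13.1 unscaled CPM after LPS), Il10 (0.984, 0 and 0 against 4.81, 2.09 and 1.37) and Nos2 (0, 0 and 0.518 against 5.32, 0 and 2.88).

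Chemokine genes held some of the largest changes. Of CC chemokines, 6 of 12 tested members were called higher (50%) and 0 lower, with a median log2 fold change of 4.11 (3.38 with genes at 0 counts set to their bound) and of 3.02 with the length offset (median transcript length 784 bases). Without untreated mouse 15, 0 of 12 were called (median 3.87), where 140 of 11253 genes were called higher. After the microglial profile was subtracted, 0 of 11 were called (median 3.43), where 66 of 10082 genes were called higher. Ccl3, a chemokine for monocytes and T cells, lay at 9.54, 25 and 5.17 CPM untreated and 536, 411 and 2040 CPM after LPS (log2 fold change 6.23, SE 1.15, adjusted p = 0.0145, 17 of 21 fits). Its log2 fold change was 4.12 with the length offset (adjusted p = 0.015). Ccl4, a chemoattractant of monocytes, lay at 18.3, 14.7 and 8.16 CPM untreated and 1712, 499.7 and 3591 CPM after LPS (log2 fold change 7.13, SE 1.57, adjusted p = 0.026, 15 of 21 fits), or 4.69 with the length offset (adjusted p = 0.0118). Mouse 6 was the highest LPS library for both. Ccl17, a ligand of CCR4, reached 658, 161 and 122 CPM from 3 counts in the untreated group (adjusted p = 0.027, 14 of 21 fits). Ccl9 lay at 65.5, 94.5 and 80.8 CPM untreated and 460.2, 1419 and 750.1 CPM after LPS (log2 fold change 3.45, SE 0.65, adjusted p = 0.0155, 16 of 21 fits). Ccl2, the main ligand of CCR2 and attractant of monocytes, lay at 39.8, 69.7 and 78.3 CPM untreated and 244, 292 and 673 CPM after LPS (log2 fold change 2.69, SE 0.70, adjusted p = 0.0455, 12 of 21 fits), but was not called with the length offset, at a log2 fold change of 0.74 (adjusted p = 0.523).

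Of CXC chemokines, 3 of 8 tested members were called higher (37.5%) and 0 lower (median 3.71). Cxcl13, the attractant of B cells, lay at 23.9, 6.39 and 6.26 CPM untreated and 2849, 3517 and 2731 CPM after LPS (log2 fold change 7.96, SE 1.29, adjusted p = 0.00849, 20 of 21 fits, log2 fold change 6.49 with the length offset), and its LPS levels were near each other. Cxcl2, a ligand of the neutrophil receptor CXCR2, lay at 6.63, 28.9 and 3.54 CPM untreated and 1382, 185 and 349 CPM after LPS (log2 fold change 5.61, SE 1.17, adjusted p = 0.0208, 15 of 21 fits). Cxcl1, another such ligand, reached 15.3, 9.16 and 28.8 CPM from 2 counts in the untreated group (adjusted p = 0.0149, 17 of 21 fits). Cxcl10, induced by interferons, lay at 24.7, 0 and 0 CPM untreated and 41, 28.3 and 179 CPM after LPS and was not called (log2 fold change 3.33, SE 1.44, adjusted p = 0.179). For receptors of chemoattractants, 2 of 11 tested members were called higher (18.2%) and 1 lower (9.09%). Fpr1, the high-affinity formyl peptide receptor, rose with Fpr2 from 48.5, 22.2 and 32.1 to 578, 544 and 713 CPM (log2 fold change 4.16, SE 0.62, adjusted p = 0.00587, 20 of 21 fits, log2 fold change 2.93 with the length offset). Ccr2, the receptor for Ccl2, was called lower, from 34.7, 11.7 and 17.9 CPM to 0.536, 0 and 0.232 CPM on 239 untreated and 3 LPS counts (adjusted p = 0.0128, 17 of 21 fits), and its microglial part was 6.86%. After the microglial profile was subtracted, Ccr2 was not called.

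Secreted proteins of the acute phase and of antimicrobial defence held the highest share of calls of the 35 pathway lists. 7 of 10 tested members were called higher (70%) and 0 lower, with a median of 8.85 (5.45 with genes at 0 counts set to their bound), and Ccr2-/- sdCAMs had 12 higher and 0 lower calls among 13 (10.9% of all genes there were called higher). Lcn2, the siderophore-binding lipocalin 2, lay at 7.69, 0 and 9.52 CPM untreated and 6241, 12360 and 6794 CPM after LPS (log2 fold change 10.52, SE 1.80, adjusted p = 0.00997, 21 of 21 fits, log2 fold change 9.15 with the length offset). Saa1, a near-identical relative of Saa2 with which it may share reads, lay at 0, 0 and 1.09 CPM untreated and 1011, 365 and 142 CPM after LPS (log2 fold change 10.31, SE 2.13, adjusted p = 0.0203, 15 of 21 fits). Cp, the copper-carrying ferroxidase ceruloplasmin, was abundant without LPS as well, at 313, 277 and 233 CPM untreated and 3076, 2508 and 2379 CPM after LPS (log2 fold change 3.27, SE 0.76, adjusted p = 0.0306, 13 of 21 fits). C3, the central complement component, lay at 5.04, 4.72 and 2.45 CPM untreated and 68.1, 71.6 and 81.5 CPM after LPS (log2 fold change 4.17, SE 0.56, adjusted p = 0.00362, 21 of 21 fits). LPS libraries were above untreated ones in each of these genes. Of complement components, 2 of 12 tested members were called higher (16.7%) and 0 lower, C3 and Cd55. Cd55, an inhibitor of the C3 convertase, lay at 17.2, 10.6 and 7.34 CPM untreated and 86.9, 319.8 and 154 CPM after LPS (log2 fold change 3.99, SE 0.60, adjusted p = 0.00589, 21 of 21 fits). The complement median of 1.13 was 0.01 with the length offset.

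Of type I interferon-stimulated genes, 9 of 35 tested members were called higher (25.7%) and 0 lower, with a median log2 fold change of 1.49 and of 1.34 with the length offset. Ifi205, of the DNA-sensing p200 family, reached 89.6, 29.1 and 85.2 CPM from 3 counts in the untreated group (adjusted p = 0.0016, 21 of 21 fits). Zbp1, a sensor of Z-form nucleic acid, lay at 5.57, 18.9 and 19.9 CPM untreated and 477, 533 and 956 CPM after LPS (log2 fold change 5.47, SE 0.85, adjusted p = 0.00686, 21 of 21 fits). Oasl1, an inhibitor of Irf7 translation, lay at 7.69, 1.67 and 3.26 CPM untreated and 40.8, 39.1 and 89 CPM after LPS (log2 fold change 3.73, SE 0.61, adjusted p = 0.00895, 19 of 21 fits). Irf7, the interferon regulatory factor that amplifies type I interferon, lay at 42.7, 54.2 and 24.8 CPM untreated and 242, 218 and 264 CPM after LPS (log2 fold change 2.57, SE 0.50, adjusted p = 0.017, 15 of 21 fits). Groups did not overlap in any of the 4. Isg15, a ubiquitin-like modifier, lay at 28.1, 24.2 and 9.25 CPM untreated and 469, 438 and 680.4 CPM after LPS (log2 fold change 4.69, SE 1.20, adjusted p = 0.0424, 12 of 21 fits). Its log2 fold change was 2.52 with the length offset (adjusted p = 0.0163). The p200 family members share sequence, so reads may be split among them. In the other group of interferon genes, guanylate-binding proteins and immunity GTPases, 2 of 13 tested members were called higher (15.4%) and 0 lower, against 12 higher and 0 lower calls among 16 in Ccr2-/- sdCAMs (10.9% of all genes there were called higher). Gbp2 lay at 30.8, 7.22 and 13.3 CPM untreated and 213, 34.1 and 221 CPM after LPS (log2 fold change 3.19, SE 0.80, adjusted p = 0.0398, 14 of 21 fits). Gbp6 lay at 1.33, 1.39 and 1.09 CPM untreated and 38.9, 5 and 23.7 CPM after LPS (log2 fold change 4.13, SE 1.01, adjusted p = 0.0368, 11 of 21 fits). In both, mouse 4 was the lowest LPS library.

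Antigen presentation showed calls in both directions. Of MHC class I presentation genes, 3 of 19 tested members were called higher (15.8%) and 0 lower (median 1.43). Psme2, a subunit of the proteasome activator PA28, lay at 62, 43.3 and 40.3 CPM untreated and 1113, 1950 and 2050 CPM after LPS (log2 fold change 5.13, SE 1.11, adjusted p = 0.0233, 12 of 21 fits), or 3.03 with the length offset (adjusted p = 0.012). Psmb10, an immunoproteasome subunit, lay at 55.9, 58.9 and 31.6 CPM untreated and 192, 587 and 435 CPM after LPS (log2 fold change 3.05, SE 0.64, adjusted p = 0.0213, 14 of 21 fits, log2 fold change 1.70 with the length offset). The peptide transporter gene Tap1 lay at 36.6, 35.3 and 32.1 CPM untreated and 201, 54.1 and 156 CPM after LPS (log2 fold change 1.99, SE 0.50, adjusted p = 0.0411, 13 of 21 fits). Of MHC class II genes, 0 of 9 tested members were called higher (0%) and 1 lower (11.1%) (median -0.93). The call was Ciita, the master regulator of class II transcription, at 11.1, 11.4 and 7.07 CPM untreated and 0.268, 0 and 0.232 CPM after LPS, on 109 and 2 counts (adjusted p = 0.0436, 9 of 21 fits, not called with the length offset at adjusted p = 0.0522), and its microglial part was 0.908%. H2-Eb1 lay at 450.2, 262 and 215 CPM untreated and 169, 102 and 229 CPM after LPS and was not called (log2 fold change -0.89, SE 0.61, adjusted p = 0.4, log2 fold change -1.53 with the length offset). Of costimulatory and checkpoint ligands, 0 of 10 tested members were called higher (0%) and 1 lower (10%) (median -1.13). The call was Sirpa, the inhibitory receptor for CD47, at 524, 681 and 972 CPM untreated and 134, 199 and 146 CPM after LPS (log2 fold change -2.19, SE 0.57, adjusted p = 0.0457, 11 of 21 fits), with a microglial part of 88.5%.

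**Figure D4:**
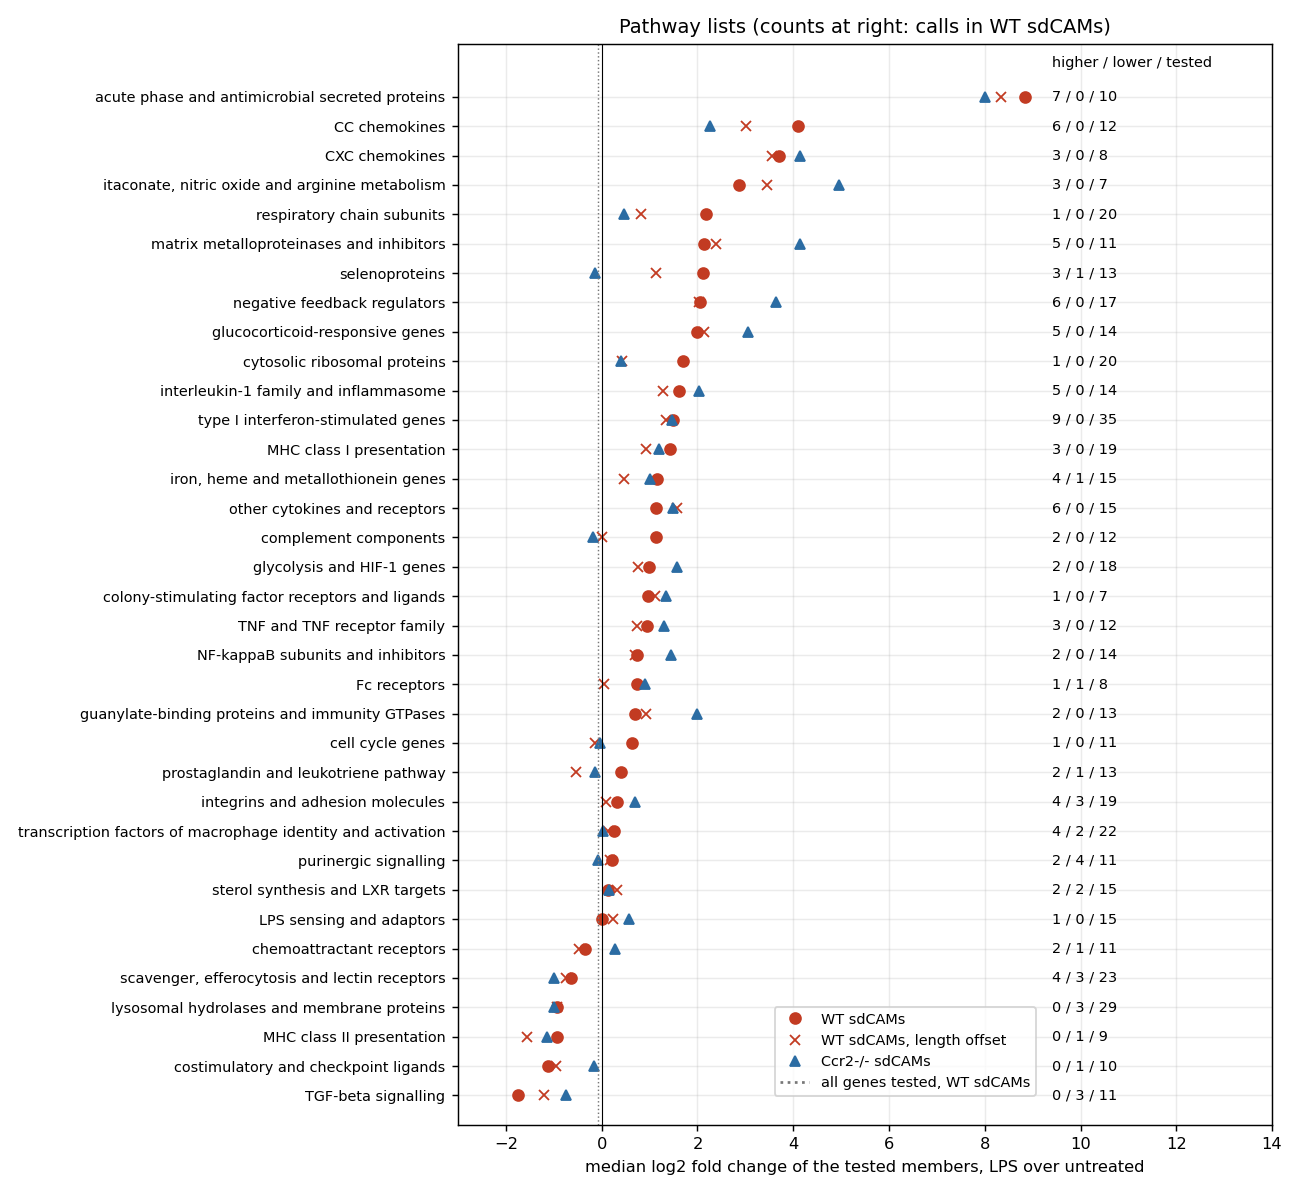
Median log2 fold change of LPS over untreated for the tested members of each of 35 pathway lists in WT sdCAMs (red circles), in the same libraries with the length offset (red crosses) and in Ccr2-/- sdCAMs (blue triangles), with counts of higher, lower and tested members in WT sdCAMs at the right; the dotted line is the median of all genes, -0.08. Medians run from -1.75 for TGF-beta signalling to 8.85 for acute phase proteins, and are medians of fitted values.

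Matrix metalloproteinases and their inhibitors, which remodel basement membranes, were called often. 5 of 11 tested members were called higher (45.5%) and 0 lower, with a median of 2.14 (2.39 with the length offset). Timp1, an inhibitor of these proteases, had 0 counts in untreated libraries and 91.5, 238 and 185 CPM after LPS (at least 210-fold higher, adjusted p = 0.00382, 21 of 21 fits). Mmp14, a membrane-bound activator of pro-MMP2, lay at 16.2, 19.7 and 25.6 CPM untreated and 273, 159.9 and 321 CPM after LPS (log2 fold change 3.62, SE 0.52, adjusted p = 0.0055, 21 of 21 fits). Adam8 lay at 6.1, 11.7 and 16.9 CPM untreated and 56.3, 72.5 and 38.6 CPM after LPS (log2 fold change 2.26, SE 0.48, adjusted p = 0.0213, 14 of 21 fits). Mmp8, the neutrophil collagenase, had 0 counts in untreated libraries and 16.1, 0.833 and 4.88 CPM after LPS (at least 8.92-fold higher, adjusted p = 0.0347, 11 of 21 fits), mouse 4 being under the floor of 3 counts.

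In adhesion, 4 of 19 tested members were called higher (21.1%) and 3 lower (15.8%). Emb, the basigin relative embigin, lay at 2.92, 4.17 and 2.45 CPM untreated and 137, 65.8 and 70.2 CPM after LPS (log2 fold change 4.83, SE 0.63, adjusted p = 0.00293, 21 of 21 fits). Each LPS library lay above all untreated ones. Itga4, the alpha 4 integrin subunit that binds VCAM-1, fell from 80.1, 53.6 and 65.6 to 14.2, 3.33 and 5.58 CPM (log2 fold change -3.05, SE 0.59, adjusted p = 0.016, 17 of 21 fits, log2 fold change -2.42 with the length offset), with a microglial part of 0.294%. After the microglial profile was subtracted, 0 members of this list were called lower, Itga4 included, where 9 of all 10082 genes were called lower. Itga6, a laminin-binding subunit, lay at 153, 149 and 189.6 CPM untreated and 22, 29.98 and 41.1 CPM after LPS (log2 fold change -2.40, SE 0.49, adjusted p = 0.0192, 14 of 21 fits). Selplg, the ligand of P-selectin, lay at 327, 394 and 495 CPM untreated and 60.1, 113 and 103 CPM after LPS (log2 fold change -2.14, SE 0.51, adjusted p = 0.0345, 13 of 21 fits), with a microglial part of 117%.

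Receptors for debris and microbes held calls in both directions. 4 of 23 tested members were called higher (17.4%) and 3 lower (13%). Clec4e, a C-type lectin that binds mycobacterial glycolipid, lay at 2.92, 0.833 and 0.272 CPM untreated and 325, 288 and 486 CPM after LPS (log2 fold change 8.05, SE 0.89, adjusted p = 0.0016, 21 of 21 fits). Its partner gene Clec4d lay at 3.71, 0.278 and 3.54 CPM untreated and 393, 635 and 408 CPM after LPS (log2 fold change 7.55, SE 0.92, adjusted p = 0.00213, 21 of 21 fits, log2 fold change 6.19 with the length offset). The scavenger receptor Marco had 0 counts in untreated libraries and 73, 8.33 and 66 CPM after LPS (at least 60.2-fold higher, adjusted p = 0.0055, 21 of 21 fits). Msr1, the class A scavenger receptor, lay at 342, 146 and 121 CPM untreated and 2254, 978 and 1360 CPM after LPS (log2 fold change 2.91, SE 0.71, adjusted p = 0.0374, 13 of 21 fits). LPS and untreated libraries did not overlap in these 4 genes. Lower were Colec12, Lrp1 and Gas6, of which Colec12 was not called with the length offset. Gas6, the bridge between dying cells and TAM receptors, lay at 729.7, 569 and 457 CPM untreated and 10.5, 101 and 20.7 CPM after LPS (log2 fold change -3.75, SE 0.84, adjusted p = 0.0271, 15 of 21 fits). Its microglial part was 5.1%, and in Ccr2-/- sdCAMs its log2 fold change was -7.08 (SE 0.68, adjusted p = 7.9e-06). Gas6 was not called after the microglial profile was subtracted, but was called with the length offset added to the subtraction. Lrp1, the low-density lipoprotein receptor-related protein, lay at 214, 391 and 362 CPM untreated and 52.3, 84.1 and 66.7 CPM after LPS (log2 fold change -2.25, SE 0.51, adjusted p = 0.0282, 13 of 21 fits) but was not called with the length offset (log2 fold change -1.18, adjusted p = 0.165). Fcgr4, an activating receptor for IgG, rose from 17.5, 4.45 and 29.9 to 737, 709 and 799 CPM (log2 fold change 5.43, SE 0.80, adjusted p = 0.00565, 20 of 21 fits, log2 fold change 3.83 with the length offset). Fcrl2, an Fc receptor-like gene, fell from 1133, 1152 and 1401 to 125, 254 and 251 CPM (log2 fold change -2.55, SE 0.65, adjusted p = 0.042, 13 of 21 fits), with a microglial part of 36.8%.

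Metabolic genes changed in several places. Of genes of itaconate, nitric oxide and arginine metabolism, 3 of 7 tested members were called higher (42.9%) and 0 lower (median 2.86). Sod2, the mitochondrial superoxide dismutase, lay at 31.6, 17.8 and 21.5 CPM untreated and 1447, 3041 and 3168 CPM after LPS (log2 fold change 6.75, SE 0.86, adjusted p = 0.00258, 21 of 21 fits). Slc7a2, a transporter of arginine, lay at 2.12, 1.11 and 0.272 CPM untreated and 109, 23.3 and 106 CPM after LPS (log2 fold change 6.04, SE 1.02, adjusted p = 0.00942, 20 of 21 fits). Groups were far apart for both. Of glycolysis and HIF-1 genes, 2 of 18 tested members were called higher (11.1%) and 0 lower. Pfkfb3, which makes the activator of phosphofructokinase, lay at 19.1, 34.7 and 80.2 CPM untreated and 441, 152 and 295 CPM after LPS (log2 fold change 2.73, SE 0.67, adjusted p = 0.0391, 14 of 21 fits). Gapdh, of the same pathway, lay at 52.2, 31.7 and 52.2 CPM untreated and 143, 251 and 181 CPM after LPS (log2 fold change 2.08, SE 0.45, adjusted p = 0.0249, 14 of 21 fits).

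Iron and metal genes followed. 4 of 15 tested members were called higher (26.7%) and 1 lower (6.67%) (median 1.16, 0.47 with the length offset). Slc40a1, which encodes ferroportin, the exporter of iron from cells, fell from 141, 171 and 219.5 to 2.68, 6.66 and 11.6 CPM (log2 fold change -4.65, SE 0.72, adjusted p = 0.00647, 19 of 21 fits). Of the metal transporters in the list, Slc11a2 and Slc39a14 were called higher, and Slc11a1 and Slc39a8 were not called. Slc11a2, the transporter DMT1, lay at 13, 13.6 and 21.2 CPM untreated and 74, 55 and 66.2 CPM after LPS (log2 fold change 2.03, SE 0.42, adjusted p = 0.0208, 15 of 21 fits). Slc39a14, the transporter ZIP14, lay at 21.5, 4.17 and 7.62 CPM untreated and 118, 44.1 and 89.4 CPM after LPS (log2 fold change 2.92, SE 0.63, adjusted p = 0.0237, 15 of 21 fits). Steap4, a metalloreductase, rose from 0, 1.39 and 1.36 to 124, 55.8 and 50.4 CPM (log2 fold change 6.35, SE 0.95, adjusted p = 0.0058, 21 of 21 fits). In each of these 4 genes the groups did not overlap. Slc40a1 had a microglial part of 41.7% and was not called after the microglial profile was subtracted (adjusted p = 0.0836). Mt2, a metallothionein of 511 bases, lay at 44.8, 16.7 and 7.07 CPM untreated and 12530, 1686 and 3078 CPM after LPS (log2 fold change 7.98, SE 1.79, adjusted p = 0.0271, 15 of 21 fits), or 5.45 with the length offset (adjusted p = 0.00747).

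Lipid mediators and sterols showed opposed steps of a pathway. Of prostaglandin and leukotriene genes, 2 of 13 tested members were called higher (15.4%) and 1 lower (7.69%). Beside Ptges, the PGE2 receptor gene Ptger2 rose from 0, 0 and 1.09 to 14.2, 15 and 19.3 CPM (log2 fold change 5.35, SE 1.28, adjusted p = 0.0345, 14 of 21 fits). Hpgd, the dehydrogenase that breaks down prostaglandins, fell from 261, 292 and 435 to 5.1, 55 and 23.2 CPM (log2 fold change -3.59, SE 0.75, adjusted p = 0.021, 17 of 21 fits, log2 fold change -4.50 with the length offset). Hpgd had a microglial part of 26.6% and a log2 fold change of -5.67 (SE 0.42, adjusted p = 8.95e-07) in Ccr2-/- sdCAMs. Of sterol genes and LXR targets, 2 of 15 tested members were called higher (13.3%) and 2 lower (13.3%). Ch25h, which makes 25-hydroxycholesterol, lay at 0.795, 3.89 and 1.9 CPM untreated and 53.9, 1.67 and 153 CPM after LPS (log2 fold change 4.98, SE 1.20, adjusted p = 0.0349, 12 of 21 fits, log2 fold change 3.94 with the length offset) and overlapped, mouse 4 lying among the untreated mice. Nr1h3, which encodes LXR alpha, lay at 0, 1.67 and 0 CPM untreated and 19.3, 27.5 and 4.41 CPM after LPS (log2 fold change 4.85, SE 1.29, adjusted p = 0.0491, 10 of 21 fits). Abca1, the cholesterol exporter and an LXR target, lay at 329, 421 and 482 CPM untreated and 112, 34.1 and 112 CPM after LPS (log2 fold change -2.25, SE 0.60, adjusted p = 0.0489, 11 of 21 fits, log2 fold change -1.57 with the length offset). With the length offset Ch25h, Nr1h3 and Abca1 were not called (adjusted p = 0.064, 0.051 and 0.0595).

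Transcription factors of macrophage identity and activation were called in both directions. 4 of 22 tested members were called higher (18.2%) and 2 lower (9.09%). Cebpb, a C/EBP factor of acute phase genes, lay at 61.5, 84.7 and 55.5 CPM untreated and 481, 678 and 621 CPM after LPS (log2 fold change 3.14, SE 0.56, adjusted p = 0.012, 16 of 21 fits, log2 fold change 2.19 with the length offset). Nfil3 rose from 2.12, 5 and 4.9 to 79.7, 58.3 and 51.1 CPM (log2 fold change 3.97, SE 0.61, adjusted p = 0.00644, 19 of 21 fits). Klf4 rose from 7.16, 6.11 and 14.7 to 127, 122 and 46.5 CPM (log2 fold change 3.40, SE 0.58, adjusted p = 0.00983, 18 of 21 fits). Batf, an AP-1 family factor, lay at 18.3, 3.61 and 20.7 CPM untreated and 88.8, 352 and 201 CPM after LPS (log2 fold change 3.91, SE 0.81, adjusted p = 0.0207, 13 of 21 fits, log2 fold change 1.40 with the length offset) but was not called with the length offset (adjusted p = 0.312). Mef2c, a factor of microglial and macrophage identity, fell from 1636, 1446 and 519.6 to 153, 83.3 and 157 CPM (log2 fold change -3.19, SE 0.68, adjusted p = 0.022, 14 of 21 fits), with a microglial part of 17.6%. In MG its log2 fold change was -1.25 (SE 0.16, adjusted p = 0.000237).

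Genes that respond to glucocorticoids, hormones released during endotoxemia, held calls in 1 direction. 5 of 14 tested members were called higher (35.7%) and 0 lower, with a median of 1.98 (2.13 with the length offset, where 8 were called higher). Fkbp5, the chaperone of the glucocorticoid receptor, lay at 51.4, 6.67 and 31.8 CPM untreated and 574, 416 and 340.1 CPM after LPS (log2 fold change 3.88, SE 0.78, adjusted p = 0.0189, 15 of 21 fits). Ddit4, an inhibitor of mTORC1, lay at 3.45, 2.5 and 0 CPM untreated and 53.1, 80.8 and 35.8 CPM after LPS (log2 fold change 4.80, SE 0.85, adjusted p = 0.0122, 18 of 21 fits). Zbtb16, which encodes the factor PLZF, lay at 5.3, 6.67 and 0.816 CPM untreated and 56.9, 23.3 and 32.3 CPM after LPS (log2 fold change 3.13, SE 0.67, adjusted p = 0.0232, 15 of 21 fits). Untreated and LPS libraries were separate for all 3. Hormone levels were not measured.

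Several lists of short genes had high medians and few calls. Of cytosolic ribosomal proteins, 1 of 20 tested members was called higher (5%) and 0 lower, with a median log2 fold change of 1.69, which was 0.42 with the length offset and 0.41 in Ccr2-/- sdCAMs. Of respiratory chain subunits, 1 of 20 tested members was called higher (5%) and 0 lower, with a median of 2.17 that was 0.82 with the offset and 0.47 in Ccr2-/- sdCAMs. Rps6, the ribosomal call, lay at 44, 22.2 and 35.4 CPM untreated and 129, 378 and 262 CPM after LPS (log2 fold change 2.92, SE 0.65, adjusted p = 0.0271, 12 of 21 fits, log2 fold change 1.04 with the length offset) and was not called with the offset (adjusted p = 0.214). Of selenoproteins, 3 of 13 tested members were called higher (23.1%) and 1 lower (7.69%). Selenow, a short selenoprotein gene of 736 bases, lay at 25.4, 17.8 and 8.16 CPM untreated and 473, 1193 and 646 CPM after LPS (log2 fold change 5.49, SE 1.05, adjusted p = 0.016, 18 of 21 fits), or 3.11 with the length offset (adjusted p = 0.00581). Selenop, the plasma carrier of selenium, fell from 598, 1079 and 2115 to 41.6, 226 and 89 CPM (log2 fold change -3.41, SE 0.89, adjusted p = 0.0447, 13 of 21 fits), with a microglial part of 22.8%. In Ccr2-/- sdCAMs the selenoprotein median was -0.14. Cdkn1a, the cell cycle inhibitor p21, was the call among cell cycle genes, at 11.1, 4.45 and 13.1 CPM untreated and 934, 1372 and 669 CPM after LPS (log2 fold change 6.69, SE 1.31, adjusted p = 0.017, 16 of 21 fits).

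Markers that define border macrophages held few calls. 1 of 16 tested members was called higher (6.25%) and 0 lower, with a median log2 fold change of -0.18. The call was Cd38, an NAD hydrolase, at 90.9, 77.5 and 146 CPM untreated and 638, 569.6 and 649 CPM after LPS (log2 fold change 2.56, SE 0.60, adjusted p = 0.0332, 13 of 21 fits). Mrc1, the gene of the sort marker CD206, lay at 1571, 1967 and 2379 CPM untreated and 475, 595 and 319 CPM after LPS (log2 fold change -2.09, SE 0.65, adjusted p = 0.0786). Stab1, the scavenger receptor stabilin-1, lay at 1199, 1142 and 1521 CPM untreated and 266, 392 and 246 CPM after LPS (log2 fold change -2.10, SE 0.59, adjusted p = 0.057, log2 fold change -1.36 with the length offset). In neither did the groups overlap and neither passed the test, but Mrc1 was called lower in 6 and Stab1 in 7 of the 21 alternative fits. Lyz2, lysozyme, was called lower in 1 of the 21, the one with the length offset (log2 fold change -2.30, adjusted p = 0.0291). Lyve1, a hyaluronan receptor, lay at 342, 381 and 388 CPM untreated and 12.1, 623 and 65.7 CPM after LPS (log2 fold change -0.67, SE 1.04, adjusted p = 0.737). Cd209f, a lectin gene, lay at 214, 158 and 222 CPM untreated and 3.75, 147 and 10.2 CPM after LPS (log2 fold change -1.91, SE 1.12, adjusted p = 0.319, log2 fold change -3.13 with the length offset). In both, LPS mouse 4 was far above LPS mice 1 and 6. In Ccr2-/- sdCAMs, 11 of the 16 markers were called lower and 2 higher (10.6% and 10.9% of all genes there), with a median of -1.23, Mrc1 at -2.37 (SE 0.17, adjusted p = 7.39e-07) and Stab1 at -2.92 (SE 0.17, adjusted p = 1.22e-07). The genotype interaction was called for 0 of these markers, but also for 0 of all 13258 genes tested, so it says nothing of the markers in particular.

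Lysosomal genes were called lower where they were called. 0 of 29 tested members were called higher (0%) and 3 lower (10.3%) (median -0.93), against 2 higher and 14 lower calls among 29 in Ccr2-/- sdCAMs (10.9% of all genes there were called higher and 10.6% lower). Lipa, lysosomal acid lipase, fell from 175, 220 and 199 to 22.3, 38.3 and 22.3 CPM (log2 fold change -2.85, SE 0.45, adjusted p = 0.00698, 20 of 21 fits), with a microglial part of 17.5%. Hexa, a subunit of beta-hexosaminidase, fell from 589, 488 and 559 to 50.4, 147 and 68.5 CPM (log2 fold change -2.63, SE 0.61, adjusted p = 0.031, 15 of 21 fits), with a microglial part of 27.5%. Man2b1, lysosomal alpha-mannosidase, fell from 471, 539 and 508 to 79.9, 157 and 118 CPM (log2 fold change -2.10, SE 0.53, adjusted p = 0.042, 11 of 21 fits). The untreated libraries lay close together in these 3 genes and above all LPS libraries.

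TGF-beta signalling, which sustains tissue macrophage identity, had calls in 1 direction. 0 of 11 tested members were called higher (0%) and 3 lower (27.3%) (median -1.75, -1.20 with the length offset). Tgfbr2, a receptor subunit, fell from 338, 435 and 418 to 72.4, 83.3 and 55.1 CPM (log2 fold change -2.50, SE 0.47, adjusted p = 0.0149, 16 of 21 fits, log2 fold change -1.78 with the length offset). Ski, an inhibitor of SMAD proteins, lay at 135, 111 and 172 CPM untreated and 34.6, 54.1 and 35.8 CPM after LPS (log2 fold change -1.75, SE 0.41, adjusted p = 0.0332, 12 of 21 fits). Smad7, another inhibitor, lay at 36.3, 33.6 and 48.4 CPM untreated and 6.71, 2.5 and 14.2 CPM after LPS (log2 fold change -2.28, SE 0.61, adjusted p = 0.0494, 10 of 21 fits). Receptor and inhibitors were called lower together in the main fit, and with the length offset Ski and Smad7 were not called (adjusted p = 0.101 and 0.0612). After the microglial profile was subtracted, 0 of the 11 members were called in either direction, and their median was -2.95. Only 66 of 10082 genes were called higher in that fit and 9 lower, so the 0 says nothing of this list in particular. With sdCAMs and MG scaled together, Ski lay at 501, 515 and 438 CPM in untreated MG and 185, 151 and 239 CPM in untreated sdCAMs.

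Purinergic genes were called in both directions. 2 of 11 tested members were called higher (18.2%) and 4 lower (36.4%). The ATP and UTP receptor gene P2ry2 had 0 counts in untreated libraries and 10.7, 8.33 and 5.34 CPM after LPS (at least 9.98-fold higher, adjusted p = 0.0191, 11 of 21 fits). Entpd1, the ectonucleotidase CD39, fell from 224, 307 and 335 to 30.6, 64.1 and 26.5 CPM (log2 fold change -2.85, SE 0.51, adjusted p = 0.0132, 17 of 21 fits). Gpr34, a lysophosphatidylserine receptor, fell from 593, 839 and 727 to 33.5, 33.3 and 48.3 CPM (log2 fold change -4.23, SE 0.58, adjusted p = 0.00435, 20 of 21 fits), with a microglial part of 69.8%. P2ry12 and P2ry13, nucleotide receptors high in microglia, had microglial parts of 126% and 96.1%.

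Among the lower calls with the smallest p were the following genes outside the pathway lists, again chosen among calls without overlap of the groups. Sft2d2, of vesicle transport, lay at 121, 169.7 and 233 CPM untreated and 14.8, 18.3 and 13.7 CPM after LPS (log2 fold change -3.49, SE 0.43, adjusted p = 0.00213, 20 of 21 fits), with a microglial part of 47.8%. Rnf150, a RING finger gene, lay at 89.6, 68.6 and 82.2 CPM untreated and 0.268, 3.33 and 2.32 CPM after LPS (log2 fold change -5.47, SE 0.72, adjusted p = 0.00341, 21 of 21 fits, log2 fold change -4.79 with the length offset), with a microglial part of 1.28%. Slc16a7, the monocarboxylate transporter MCT2, lay at 64.2, 65 and 94.9 CPM untreated and 7.24, 5.83 and 2.09 CPM after LPS (log2 fold change -3.90, SE 0.57, adjusted p = 0.00565, 19 of 21 fits, log2 fold change -3.09 with the length offset), with a part of 12.8%. In all 3 the LPS libraries lay far under each untreated library. Map3k5, the stress kinase ASK1, lay at 28.1, 31.7 and 70.2 CPM untreated and 1.07, 1.67 and 2.56 CPM after LPS (log2 fold change -4.57, SE 0.68, adjusted p = 0.00565, 21 of 21 fits). Kdm2b, a histone demethylase, lay at 26.5, 43.1 and 43.5 CPM untreated and 1.07, 0.833 and 2.56 CPM after LPS (log2 fold change -4.53, SE 0.69, adjusted p = 0.0062, 21 of 21 fits). Tanc2, a scaffold protein gene, lay at 172, 158 and 339.5 CPM untreated and 18, 16.7 and 20.4 CPM after LPS (log2 fold change -3.60, SE 0.52, adjusted p = 0.0055, 21 of 21 fits, log2 fold change -2.74 with the length offset). LPS levels of Tanc2 lay within a narrow range. Those of Map3k5 and Kdm2b were low, and in LPS mouse 4 under the floor of 3 counts (2.49 CPM). Rnf150, Map3k5, Kdm2b and Tanc2 were the only lower calls kept in all 21 alternative fits, microglial subtraction and the length offset included. Dock8, a guanine nucleotide exchange factor of immune cells, lay at 217, 212 and 209.7 CPM untreated and 35.4, 16.7 and 28.1 CPM after LPS (log2 fold change -2.98, SE 0.45, adjusted p = 0.0062, 19 of 21 fits). Tln2, the integrin linker talin 2, lay at 154, 113 and 108 CPM untreated and 9.92, 20.8 and 7.2 CPM after LPS (log2 fold change -3.35, SE 0.54, adjusted p = 0.00856, 19 of 21 fits, log2 fold change -2.40 with the length offset). Ighm, the heavy chain gene of IgM, lay at 276, 167 and 157 CPM untreated and 7.24, 18.3 and 14.6 CPM after LPS (log2 fold change -3.92, SE 0.61, adjusted p = 0.00689, 19 of 21 fits, log2 fold change -4.63 with the length offset). Of the B cell markers, Cd79a and Ms4a1 were at 0 in all untreated libraries, and Cd79b lay at 13.5, 11.7 and 2.45 CPM untreated and 2.95, 26.6 and 14.6 CPM after LPS and was not called (adjusted p = 0.725). Ezh1, a histone methyltransferase, fell from 48, 56.1 and 49.5 to 3.75, 6.66 and 7.43 CPM (log2 fold change -3.11, SE 0.50, adjusted p = 0.00801, 19 of 21 fits).

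Whether sdCAMs and MG of the same mice responded differently was tested with a cell type by LPS interaction over 13136 genes. The sdCAM response lay above that of MG in 57 genes (0.434%) and below it in 117 (0.891%) by edgeR. With the mouse as a replicate block 91 genes were called (39 above and 52 below), 80 of them among the 174. Leaving out the MG library of mouse 15, 9, 14, 6, 4 or 1 brought the calls to 46, 50, 52, 53, 66 and 89, and leaving out the sdCAM library of mouse 6, 14 or 4 to 97, 103 and 114. Transcript length moved with this contrast too, with a median difference of 1.64 for genes of up to 1000 bases and of -0.63 for those over 4000, and the length offset gave 162 calls (73 above and 89 below). Of the 57, fitted responses of both cell types were positive in 26 and of opposite sign in 28. Of the 117, both were positive in 25, both negative in 20 and of opposite sign in 70. In what follows sdCAM and MG levels come from 1 fit and 1 scaling. Adjusted p-values of the interaction genes are from the fit without the mouse as a block and without the length offset. Which of these genes were kept with either is not given. Of the 162 calls with the length offset, 117 were among the 174.

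Genes with a larger response in sdCAMs included both subunits of interleukin-27. For Il27, sdCAM levels were 0.364, 0 and 0 CPM untreated and 30.6, 31.6 and 37 CPM after LPS, against 3.33, 3.63 and 2.2 and 4.49, 1.57 and 3.77 CPM in MG (adjusted p = 0.00506). For Ebi3, sdCAM levels were 27.6, 33 and 10.6 CPM untreated and 166, 511 and 302 CPM after LPS, against 15.8, 13.9 and 13.3 and 18.1, 7.91 and 9.92 CPM in MG. The difference of the log2 responses was 4.03 (SE 0.69, adjusted p = 0.0067). Both genes rose in sdCAMs and were low in all MG libraries. For Pycard, sdCAM levels were 109, 106 and 82.9 CPM untreated and 1629, 2529 and 1659 CPM after LPS, against 153, 147 and 141 and 142, 102 and 106 CPM in MG. Its difference of the log2 responses was 4.62 (SE 0.87, adjusted p = 0.0135). For Psmb10, sdCAM levels were 76.7, 80.3 and 43.7 CPM untreated and 271, 797 and 588 CPM after LPS, against 45.8, 43.9 and 47 and 59.8, 40.3 and 58.9 CPM in MG. Its difference of the log2 responses was 2.82 (SE 0.60, adjusted p = 0.0291). Neither Pycard nor Psmb10 was called in MG (adjusted p = 0.0562 and 0.557). Mmp19 and Sod2 rose in both cell types, Mmp19 to 37.4, 39.5 and 30.4 CPM in sdCAMs and from 1.62, 2.09 and 1.88 to 13.8, 6.84 and 8.86 CPM in MG (adjusted p = 0.00155). Sod2 differed by 3.49 on the log2 scale (SE 0.84, adjusted p = 0.0477).

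Genes with a larger response in MG were in part genes that untreated sdCAMs already held. For F13a1, the coagulation factor XIII A subunit, sdCAM levels were 1665, 1206 and 1494 CPM untreated and 1744, 1209 and 749 CPM after LPS, against 0, 0.182 and 0.0816 and 11.3, 7.75 and 4.43 CPM in MG. The responses differed (adjusted p = 0.00155), on 3 counts in all untreated MG libraries together. For Dab2, an endocytic adaptor, sdCAM levels were 2487, 2716 and 1928 CPM untreated and 818, 502 and 581 CPM after LPS, against 23.9, 25.1 and 19.4 and 468, 145 and 271 CPM in MG. For Dab2 the difference of the log2 responses was -5.60 (SE 0.62, adjusted p = 0.000182). Dab2 in MG thus moved towards the sdCAM level after LPS, while in sdCAMs it was not called (log2 fold change -1.91, SE 0.62, adjusted p = 0.0871). For Msr1, sdCAM levels were 469, 199 and 168 CPM untreated and 3174, 1327 and 1837 CPM after LPS, against 0.666, 1.73 and 0.979 and 1997, 344 and 999 CPM in MG. The difference of the log2 responses was -7.01 (SE 0.88, adjusted p = 0.000578). For Siglec1, a sialic acid receptor of border macrophages, sdCAM levels were 139, 117 and 227 CPM untreated and 147, 191 and 108 CPM after LPS, against 2.95, 2.09 and 0.816 and 133, 26.8 and 44.7 CPM in MG. The difference of the log2 responses was -5.24 (SE 0.90, adjusted p = 0.0067). For Ms4a4a, sdCAM levels were 183, 180.4 and 139.5 CPM untreated and 350, 583 and 548 CPM after LPS, against 0, 0 and 0 and 165, 26.5 and 66.6 CPM in MG (adjusted p = 0.000339). In each of these 5 genes the untreated sdCAM libraries lay above the untreated MG libraries. Il1r2 rose in both, to 57.8, 128 and 70 CPM in sdCAMs and 208, 288 and 184 CPM in MG (adjusted p = 0.0298).

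**Figure D5:**
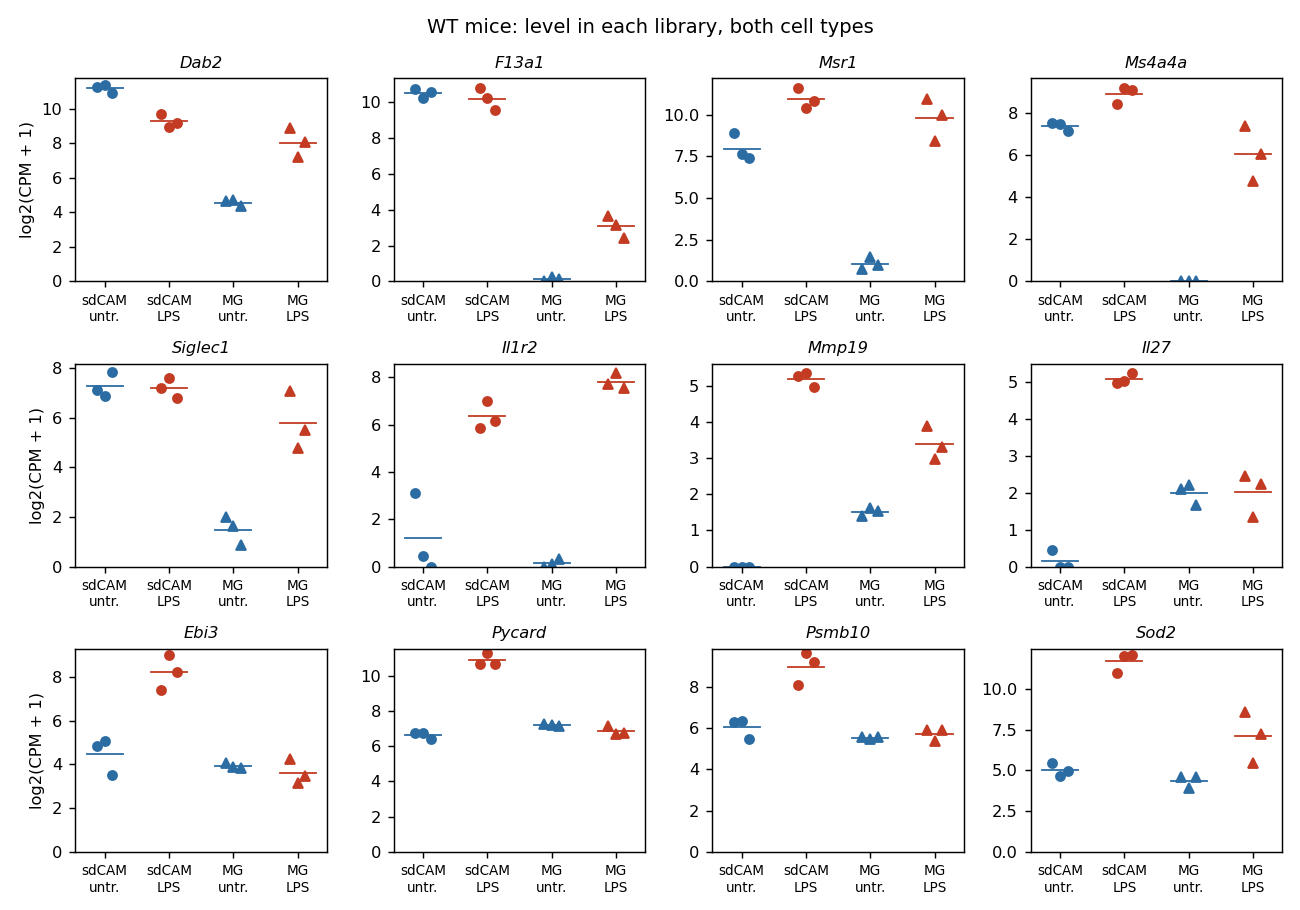
Level of 12 genes called in the cell type by LPS interaction in each WT library, as log2(CPM + 1), for sdCAMs (circles) and MG (triangles) of untreated mice (blue) and CTL LPS mice (red), with group means as lines. Dab2, F13a1, Msr1, Ms4a4a and Siglec1 are above MG in untreated sdCAMs, while Il27 lies at 0 to 0.364 CPM in untreated sdCAMs and at 30.6 to 37 CPM in sdCAMs after LPS.

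The genotype by LPS interaction in sdCAMs, which asks where the WT response differs from that of Ccr2-/- mice, gave 0 higher (0%) and 0 lower (0%) calls of 13258 genes by edgeR. The smallest adjusted p was 0.126, 1792 genes had an unadjusted p under 0.05, and DESeq2 called 242. WT and Ccr2-/- libraries came from separate count tables and differed in depth and in the length gradient, so genotype and table cannot be told apart. For Ccr2, the gene targeted in the knockout, a response in Ccr2-/- sdCAMs was not called, at a log2 fold change of 0.19 (SE 0.78, adjusted p = 0.888). The log2 fold change in Ccr2-/- sdCAMs was 9.03 (SE 0.24, adjusted p = 3.89e-10) for Il1rn, where that in WT sdCAMs was 9.52. For Sod2 it was 5.69 (SE 0.16, adjusted p = 3.89e-10) against 6.75, and for Slc40a1 -5.19 (SE 0.50, adjusted p = 7.76e-06) against -4.65. For Gpx4, a short selenoprotein gene that protects membranes from lipid peroxidation, it was 0.092 (SE 0.20, adjusted p = 0.787) against 4.26, or 2.23 with the length offset (adjusted p = 0.0227).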

How the data were processed

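Sorted cells were sequenced by the authors from low-input cDNA (SMARTer, Nextera XT, single reads on a HiSeq 1000), aligned with STAR 2.7.11a and counted with featureCounts 2.0.8. The authors deposited integer read counts for each gene symbol, taken here as raw counts. Whether the batch correction named by the authors had been applied to them is not stated. No molecular identifiers were used, so intervals and floors cover counting error only. The genome build was named ambiguously (mm10 or GRCm39), strand was not stated, and reads of near-identical genes (Saa genes, p200 family, ribosomal pseudogenes) may be split. The table held 33280 symbols, 12517 with no count in the 9 WT sdCAM libraries, and 0 columns without a sample. For Ccr2-/- mice given LPS, sample titles and column names named opposite cell types, and the column names were used. In the sdCAM columns of the Ccr2-/- mice given vehicle and LPS, the microglial level was 4.83%, 6.68% and 9.97%. The IEG_correction label, not explained in the sources used here, was missing in untreated mouse 15 alone of the 6.

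Counts were fitted with edgeR 4.0.16 (filterByExpr, TMM, quasi-likelihood test, R 4.3.3) over 9 WT sdCAM libraries, with Benjamini-Hochberg adjustment over all genes tested and two-sided tests. Adjusted p-values in the text are from this fit unless stated. Calls passed 0.05 after adjustment and moved by over 1 on the log2 scale. An exact permutation test of 3 against 3 cannot go below 0.1. Genes at 0 in all untreated libraries are given as bounds against 3 counts per library, and groups with up to 3 counts get no fold. The microglial profile of each mouse was scaled to its library's microglial level for the subtraction. The length offset was a lowess (span 0.3) of each gene's deviation on the length of its longest GENCODE transcript. Interactions with genotype and cell type used 18 libraries each. Alternatives were DESeq2 1.42.0, limma 3.58.1 (voom with quality weights), other size factors, filters, sets of libraries and covariates, thinned counts, and each library left out. The script for calls was tested on simulated data.

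Named genes were the markers, up to 5 members of each pathway list with the smallest p plus classical LPS genes, up to 15 calls in each direction with the smallest p at a mean of 10 CPM or more and without overlap, and up to 10 genes per interaction. The other interaction genes described were chosen after their values were seen. Members and lists were chosen with earlier results of these data known. Some genes the rule names are not reported here.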

Additional observations from a re-analysis of the deposited data

Results flagged for a closer look

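For the 10 well-expressed genes with the smallest p in the cell type by LPS interaction, the responses of WT sdCAMs and MG differed. This was by edgeR's test of the difference itself, in the fit without the mouse as a block. In each of them the sdCAM response lay below the MG response, and all values are sdCAM minus MG on the log2 scale. The difference was -5.597 for Dab2, -7.009 for Msr1 and -5.969 for Ehd1, an ATPase of endocytic recycling. It was -4.563 for Sh3pxd2b, a podosome adaptor, -4.311 for Ripor2, -4.451 for Gpr65, a proton-sensing receptor, -3.467 for Prune2 and -2.993 for Hgsnat, a lysosomal acetyltransferase. The fitted values of -10.71 for Ms4a4a and -6.451 for F13a1 rest on MG with 0 and 3 counts in all 3 untreated libraries together and depend on the prior count. Ripor2 lay at 66.2, 45.5 and 75 CPM in untreated sdCAMs and 26.8, 32.8 and 28.6 CPM after LPS, and at 18.2, 11.7 and 15 and 155, 136 and 128 CPM in MG (adjusted p = 0.000182). Ehd1 lay at 46.9, 91.3 and 95 CPM in untreated sdCAMs and 570.1, 756 and 483 CPM after LPS, and at 0.38, 0.454 and 0.489 and 426, 62.3 and 182 CPM in MG (adjusted p = 0.000856). Gpr65 lay at 115, 131 and 51.6 CPM in untreated sdCAMs and 195, 137 and 101 CPM after LPS, and at 7.23, 4.9 and 5.63 and 252, 148 and 167 CPM in MG (adjusted p = 0.000303). Hgsnat lay at 260, 223 and 250.3 CPM in untreated sdCAMs and 34.4, 72.3 and 53.4 CPM after LPS, and at 70, 59.5 and 80.3 and 108, 128 and 125 CPM in MG (adjusted p = 0.00155).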

How the results depend on the processing

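The LPS response of WT sdCAMs kept its direction for each named gene that was called, with 0 reversals in 21 alternative fits. Nearly all calls were free of overlap between the groups, so leaving out a library could hardly reverse one. The number of calls moved widely. Against 664 calls, DESeq2 gave 1655, limma voom with quality weights 1930, no low-count filter 1518, the 6 libraries alone 1359, all 18 sdCAM libraries 2283, the IEG mark as covariate 1142 and the 5 marked libraries 1301. Subtraction of the microglial profile gave 75, and 94 with the length offset (chosen after seeing the data). The length offset alone gave 758, sharing 524. Leaving out 1 library gave 137 to 293. Under the subtraction 85 of 228 named genes lost their call, and 37 to 69 of 237 did so when a library was left out. The cause of these moves was not tested.

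Genotype interaction calls went from 0 to 242 with DESeq2 and 622 without a filter, and were 0 to 1 without single libraries. Cell type interaction calls went from 174 to 853 with DESeq2, 838 without a filter, and 46 to 260 without single libraries. With the mouse as a replicate block, since sdCAMs and MG came from the same mice, 91 were called. No paired analysis was possible because the LPS and untreated sdCAMs came from different mice. Depth limits genes under the floor of 3 counts, 0.693 to 2.49 CPM.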
